A study of Paxillus involutus with 18 samples.

Results

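The transcript levels of the ectomycorrhizal fungus *Pa. involutus* were compared directly between a cellulose medium (CMC) and a maize compost extract made with cold water (MC). The comparison used the 3 CMC and the 3 MC arrays of 18 arrays in all, chosen by their medium. All 6 lay on the same slide, a 12-plex NimbleGen slide referred to here as slide 2, and all 12214 isotigs, the assembled transcripts with probes on the array, were tested. The fungus was the wild-type strain ATCC 200175, grown axenically as a mycelium on glass beads for 9 days in the mineral medium MMN, then kept without N for 24 h. The cultures were then held for 7 days in CMC, a soluble cellulose whose chains carry carboxymethyl groups, or in MC, from which particles and low molecular weight compounds had been removed by filtration. Both media had been supplemented with glucose. What the CMC medium held beside CMC and glucose is not given in the sources used here, so the carbon polymer and other nutrients cannot be told apart as sources of a difference. Further arrays carried MMN, the control medium with glucose and ammonium (3 on slide 1 and 3 on slide 2, with the same replicate numbers and tracking controls, so possibly of the same cultures), and on slide 1 hot water extracts of the same kind of compost (MH, 3 arrays) and of spruce forest litter (FH, 3 arrays). The labels name the replicates biological without stating the step at which they were separated, so a p-value here reflects only how far these arrays spread. MC replicate 3 is called MC in 3 of its labels but MH in its free-text note, and it was kept as MC. Its mean correlation, on levels centred by isotig, was 0.83 with MC arrays and 0.41 with the MH arrays of slide 1. The MC and the CMC arrays lay in different sectors of the slide, so position and medium cannot be told apart.

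Ectomycorrhizal fungi live on sugars from tree roots and take N from soil organic matter, where proteins are bound to polyphenols and polysaccharides. Brown-rot fungi, relatives of *Pa. involutus*, attack plant polymers with hydroxyl radicals made from ferrous iron and hydrogen peroxide, the Fenton reaction. Enzymes that act on phenols, make peroxide, reduce or take up iron, or cut cellulose are therefore the groups of interest here. A soluble cellulose is set against a compost extract with fluorescence peaks that, by the study, could come from aromatic compounds.

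Levels are given as log2 values made by the authors with robust multi-array average (RMA), and a difference is the mean of CMC minus the mean of MC. An isotig was called where the adjusted p of limma was under 0.01 and the difference was over 2-fold. By this rule 138 isotigs (1.13%) differed, of which 100 (0.819%) were lower on CMC than on MC and 38 (0.311%) were higher on CMC. The differences in favour of MC were also the larger ones. On MC 30 isotigs were over 3-fold, 11 over 4-fold and 2 over 8-fold higher, against 5, 1 and 0 on CMC. At an adjusted p under 0.01 alone, without the fold threshold, 2068 isotigs (16.9%) differed, with 983 isotigs (8.05%) lower on CMC and 1085 (8.88%) higher. Most of the transcriptome lay close together, and 96.2% of the isotigs differed by less than 1.5-fold. The root mean square of the 12214 differences was 0.27 (log2), against 0.08 from replicate error by itself. Within a medium the median SD of an isotig was 0.06 on CMC and 0.07 on MC. The random control probes had values from 3.69 to 3.75 on the 6 arrays and 700 isotigs had means under 6 in both media, while the called isotigs had means between 8.25 and 14.31.

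**Figure D1:**
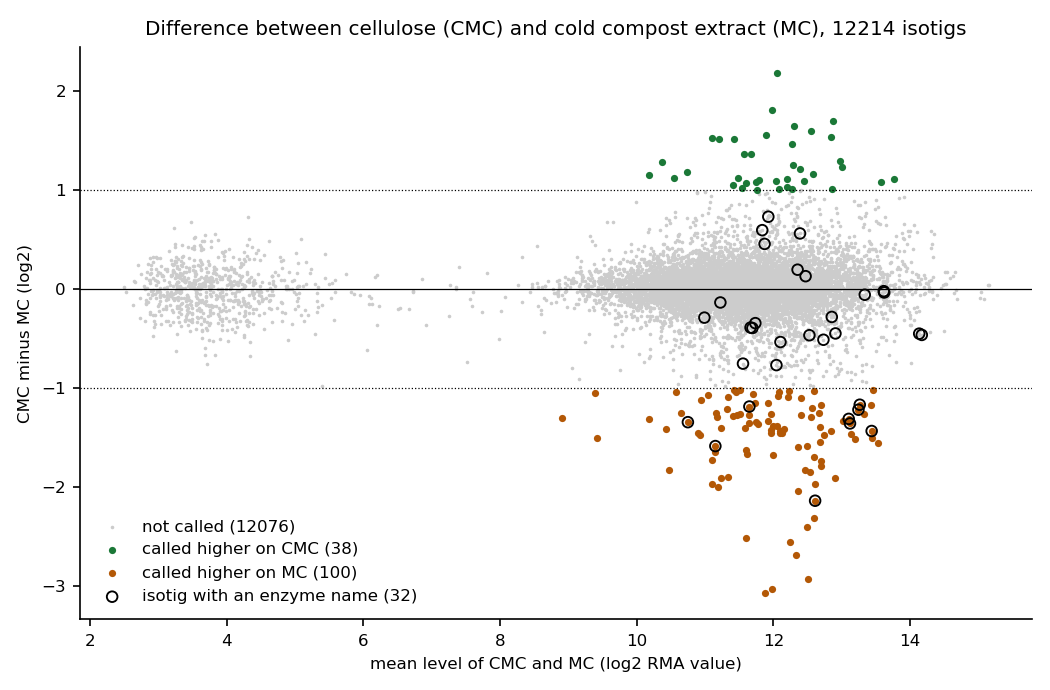
Difference of CMC minus MC (log2, vertical axis) against the mean level of both media (log2 RMA value, horizontal axis) for all 12214 isotigs, with called isotigs in colour, isotigs with an enzyme name circled and dotted lines at a 2-fold difference. The 100 isotigs called higher on MC reach 3.08 log2 units below the line of no difference, and the 38 called higher on CMC reach 2.18 above it.

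Enzymes that act on phenols and other aromatic compounds were among the isotigs that were higher on MC. The tyrosinases, copper enzymes that oxidise phenols to quinones and take part in pigment formation, gave the largest difference of the isotigs with an enzyme name. Tyrosinase paxillus_1195 had values of 11.41, 11.52 and 11.68 on the CMC arrays and of 13.69, 13.72 and 13.63 on the MC arrays. The media were thus clearly apart, and CMC was close to the MMN arrays of slide 2, which had 11.35, 11.27 and 11.19. The difference was -2.14 (standard error 0.11, adjusted p = 1.1e-10 from limma), or 4.42-fold in favour of MC (95% interval 3.76 to 5.18). Tyrosinase paxillus_222 had 12.78, 12.50 and 12.76 on CMC and 13.84, 13.77 and 13.94 on MC, against a mean of 11.20 ± 0.06 (SD, n = 3) on MMN. Here CMC took a middle place, above all MMN arrays and below all MC arrays, with a difference of -1.17 (standard error 0.07, adjusted p = 4.6e-10).

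A further tyrosinase, paxillus_7541, was chosen after its values were seen. It had 10.38, 10.38 and 10.31 on CMC and 11.53, 12.14 and 12.17 on MC, so that MC replicate 1 stood below the other MC arrays but well above every CMC array. The difference was -1.59 (standard error 0.12, adjusted p = 8.8e-09), or 3.01-fold. In no other medium was its mean near that of MC. The means were 10.64 ± 0.02 (SD, n = 3) on MMN of slide 2, 10.40 ± 0.06 (SD, n = 3) on MH and 10.50 ± 0.11 (SD, n = 3) on FH. Tyrosinase paxillus_984 differed less, with 11.51, 11.47 and 11.50 on CMC and 11.65, 12.09 and 11.93 on MC, a difference of -0.40 (adjusted p = 0.0092). Its adjusted p was over 0.01 when any of the arrays other than MC replicate 1 was left out, up to 0.062 without MC replicate 2.

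Phenylalanine ammonia lyase, which releases ammonia from phenylalanine to give cinnamic acid, a starting point of phenolic compounds, was 2.57-fold higher on MC (95% interval 2.22 to 2.97) with isotig paxillus_5485. Its values were 12.32, 12.60 and 12.40 on CMC and 13.64, 13.78 and 13.99 on MC, with a difference of -1.36 (standard error 0.10, adjusted p = 9.4e-09). The CMC arrays in turn lay above the MMN arrays of slide 2, which had 10.96, 11.06 and 11.20. The other isotig of the same isogroup (the assembly's unit for a gene), paxillus_5484, had 12.26, 12.70 and 12.37 on CMC and 13.59, 13.76 and 13.93 on MC, a difference of -1.32 (standard error 0.13, adjusted p = 4.3e-07).

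The 6 laccases, multicopper oxidases that take electrons from phenols, did not all go the same way. Laccase paxillus_8036 had 12.62, 12.87 and 12.67 on CMC and 14.19, 14.12 and 14.16 on MC, and was the only one called, with a difference of -1.44 (standard error 0.12, adjusted p = 4.9e-08). Laccase paxillus_7916 was 1.27-fold higher on MC (adjusted p = 0.00036), with 11.56, 11.59 and 11.53 on CMC and 11.76, 11.97 and 12.00 on MC. Laccase paxillus_4041 went the other way, with CMC above MC by 1.37-fold (adjusted p = 6.5e-05), and had 12.07, 12.10 and 12.12 on CMC and 11.52, 11.68 and 11.74 on MC. For the remaining laccases no difference passed the test. For paxillus_8102, with 13.30, 13.39 and 13.23 on CMC and 13.30, 13.44 and 13.37 on MC, the arrays overlapped, and the difference was -0.06 (95% interval -0.25 to 0.13, adjusted p = 0.68). The intervals of paxillus_3450 and paxillus_3452, which belong to the same isogroup, were -0.11 to 0.36 and -0.02 to 0.41. In both, all CMC arrays lay above all MC arrays, as in 23.5% of all isotigs. Isotig paxillus_3450 had 12.57, 12.51 and 12.53 on CMC and 12.43, 12.30 and 12.49 on MC.

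Cytochrome P450 monooxygenases, which insert an oxygen atom into their substrates, were higher on MC for 4 of 5 isotigs at the adjusted p (8.05% of all isotigs), and 2 of these were called (0.819% of all isotigs). The called ones, paxillus_3631 and paxillus_3633, are isotigs of the same isogroup. Isotig paxillus_3633 had 10.00, 10.19 and 10.03 on CMC and 11.24, 11.35 and 11.67 on MC, a difference of -1.35 (standard error 0.11, adjusted p = 2.6e-08). Isotig paxillus_3631 had 11.03, 11.04 and 11.09 on CMC and 12.07, 12.18 and 12.48 on MC, a difference of -1.19 (adjusted p = 7.8e-08). In both, the CMC values were near those on MMN, which had means of 9.95 ± 0.06 (SD, n = 3) and 11.02 ± 0.04 (SD, n = 3). Under 2-fold were the differences of paxillus_2772, with 11.12, 11.29 and 11.12 on CMC and 11.81, 11.93 and 12.05 on MC (1.69-fold, adjusted p = 1.3e-07), and of paxillus_8099, with 11.67, 11.67 and 11.63 on CMC and 12.20, 12.46 and 12.63 on MC (1.71-fold, adjusted p = 2.3e-05). The arrays of paxillus_4020 overlapped, and its difference was -0.14 (95% interval -0.32 to 0.04, adjusted p = 0.26).

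The aromatic peroxygenase paxillus_10214, a haem-thiolate enzyme that oxygenates aromatic compounds with hydrogen peroxide, had 12.55, 12.70 and 12.64 on CMC and 13.80, 13.76 and 14.01 on MC. The difference was -1.22 (standard error 0.09, adjusted p = 5.4e-09), and CMC was level with the MMN arrays of slide 2, at 12.58, 12.51 and 12.71. The catechol 1,2-dioxygenases, which open the ring of catechols, were higher on MC by less than 2-fold, at 1.39-fold for paxillus_6174 (adjusted p = 0.00013) and 1.45-fold for paxillus_6175 (adjusted p = 9.4e-05), which share an isogroup. The isotig of a haem peroxidase, paxillus_5582, from enzymes that use hydrogen peroxide as the oxidant, had 12.64, 12.71 and 12.78 on CMC and 12.87, 12.90 and 13.21 on MC. These arrays did not overlap, yet the difference of -0.29 (95% interval -0.52 to -0.05) missed the threshold with an adjusted p of 0.068.

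**Figure D2:**
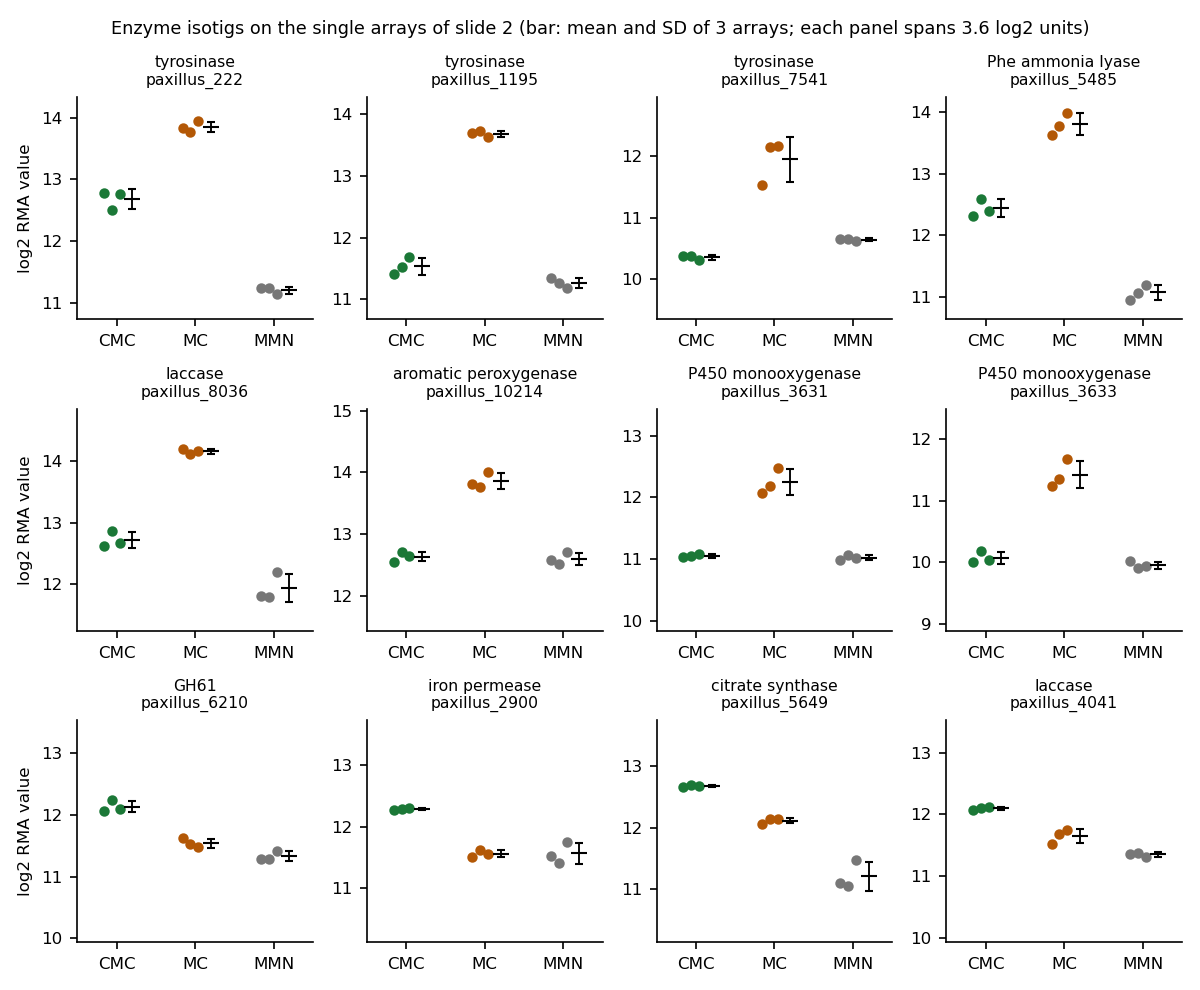
Level of 12 enzyme isotigs (log2 RMA value, vertical axis) on each CMC, MC and MMN array of slide 2, with the mean and SD of 3 arrays as a bar beside the points. In the upper 8 panels all MC arrays lie above all CMC arrays, and in the lower 4 panels (GH61 paxillus_6210, iron permease paxillus_2900, citrate synthase paxillus_5649 and laccase paxillus_4041) all CMC arrays lie above all MC arrays.

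The enzymes that act on cellulose itself gave small differences of opposite sign. GH61 paxillus_6210, from a family that breaks cellulose chains oxidatively, was 1.51-fold higher on CMC (95% interval 1.36 to 1.67). Its values were 12.07, 12.23 and 12.10 on CMC and 11.62, 11.53 and 11.47 on MC, a difference of 0.59 (standard error 0.07, adjusted p = 4.7e-06). The GH9 endoglucanase paxillus_6851, from a family that cuts cellulose chains internally, had 10.79, 11.02 and 10.72 on CMC and 11.06, 11.16 and 11.19 on MC. It was thus 1.22-fold higher on MC, with a difference of -0.29 (adjusted p = 0.0059) whose adjusted p was over 0.01 without CMC replicate 1 or 3 and without MC replicate 2 or 3, up to 0.042 without CMC replicate 3. It also missed 0.01 with only the arrays of slide 2 (0.014) and with only the 6 CMC and MC arrays (0.021).

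Of the 5 isotigs tied to iron, 1 was higher on CMC and 4 were higher on MC at the adjusted p, beside 8.88% and 8.05% of all isotigs. Iron permease paxillus_2900, which carries iron into the cell, had 12.28, 12.29 and 12.30 on CMC and 11.51, 11.62 and 11.55 on MC. It was 1.66-fold higher on CMC, the largest difference in favour of CMC among the isotigs with an enzyme name, at 0.73 on the log2 scale (95% interval 0.58 to 0.87, adjusted p = 2.2e-07). MC was at the level of the MMN arrays of slide 2, which had 11.53, 11.42 and 11.75. The isotigs with the name siderophore, a term for small molecules that bind ferric iron, were higher on MC. The ratio was 1.37-fold for paxillus_300 (adjusted p = 0.00034) and 1.31-fold for paxillus_6835 (adjusted p = 0.00024). These are transcript levels, and siderophores themselves were not measured. The ferric reductases paxillus_2315 and paxillus_2317, of the same isogroup, which turn ferric into ferrous iron, had means of 13.94 ± 0.02 and 13.91 ± 0.02 (SD, n = 3) on CMC and of 14.40 ± 0.06 and 14.36 ± 0.12 (SD, n = 3) on MC. Their adjusted p-values were 0.0069 and 0.0083. Whichever of the 6 arrays was left out, the adjusted p of both was over 0.01, in the range from 0.014 to 0.043. In a limma fit of only the 6 CMC and MC arrays it was 0.00014 and 0.00066, and with slide 2 alone 0.0088 and 0.014. The MMN arrays spread more, with SDs of 0.25 and 0.23 on slide 1 and 0.29 for both on slide 2. This spread enters the standard errors, as the main fit pools all media.

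The citrate synthases, which join acetyl-CoA and oxaloacetate to citrate, an organic acid that binds iron, went in opposite directions. Citrate synthase paxillus_5649 had 12.65, 12.68 and 12.67 on CMC and 12.06, 12.13 and 12.14 on MC. It was 1.47-fold higher on CMC, with an adjusted p of 0.0012. Citrate synthase paxillus_3047 had 12.48, 12.48 and 12.45 on CMC and 12.85, 12.95 and 13.17 on MC. The difference was 1.43-fold in favour of MC (adjusted p = 1.2e-05). Glyoxal oxidase, an enzyme that oxidises small aldehydes and releases hydrogen peroxide, was measured with 2 isotigs of an isogroup, and the arrays of both media overlapped for each. Isotig paxillus_3881 had 13.71, 13.55 and 13.54 on CMC and 13.68, 13.55 and 13.65 on MC, with a ratio of MC to CMC of 1.02 (95% interval 0.846 to 1.22). For paxillus_3882 the ratio was 1.03 (95% interval 0.825 to 1.28). Their adjusted p-values were 0.92 and 0.89.

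Tyrosinase paxillus_7541 was left out of the counts by role, since it was chosen with its values known. Of the other 31 isotigs with an enzyme name, 8 were called lower on CMC and 0 higher by limma, beside 0.819% and 0.311% of all isotigs. At the adjusted p alone, 20 were lower on CMC and 4 were higher, beside 8.05% and 8.88% of all isotigs, and 7 did not pass. At an unadjusted p under 0.05, 4 were higher and 21 were lower, beside 19.6% and 16.1% of all isotigs. The median difference of the 31 was -0.45, and that of all isotigs was 0.01. The study's rule for its listed enzymes was a rise over MMN of more than 2-fold on at least 1 medium with organic matter. MC was among these media, so the excess in favour of MC is no independent evidence of a direction. Not all of the 31 reached 2-fold here, such as iron permease paxillus_2900. Its means were 12.02 on FH and 11.87 on MH against 11.37 on MMN of slide 1. On MC its mean was 11.56, against 11.57 on MMN of slide 2. The CMC and MC arrays did not overlap for 27 of the 31 isotigs, 21 with CMC below MC and 6 with CMC above, where 42.2% of all isotigs did not overlap, 18.7% with CMC below and 23.5% above. By role, 12 of 18 isotigs that act on aromatic compounds were lower on CMC at the adjusted p and 1 was higher. Of 7 isotigs for phenylalanine ammonia lyase and iron, 6 were lower and 1 was higher. Of the 2 isotigs for cellulose, 1 was lower and 1 higher. Of 4 isotigs for citrate synthase and glyoxal oxidase, 1 was lower and 1 higher. All these counts are of isotigs and include both members of a pair from the same isogroup, so the genes are fewer. The 8 called, for example, hold both isotigs of phenylalanine ammonia lyase and both of a P450 isogroup. For the 6 isogroups measured with a pair of isotigs, the difference of CMC minus MC was compared between both isotigs in a linear model. The model, fitted with limma, found 0 of the 6 pairs to differ, also at an unadjusted p under 0.05. The largest gap was 0.16 (log2, standard error 0.10, adjusted p = 0.68), between paxillus_3631 and paxillus_3633.

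**Figure D3:**
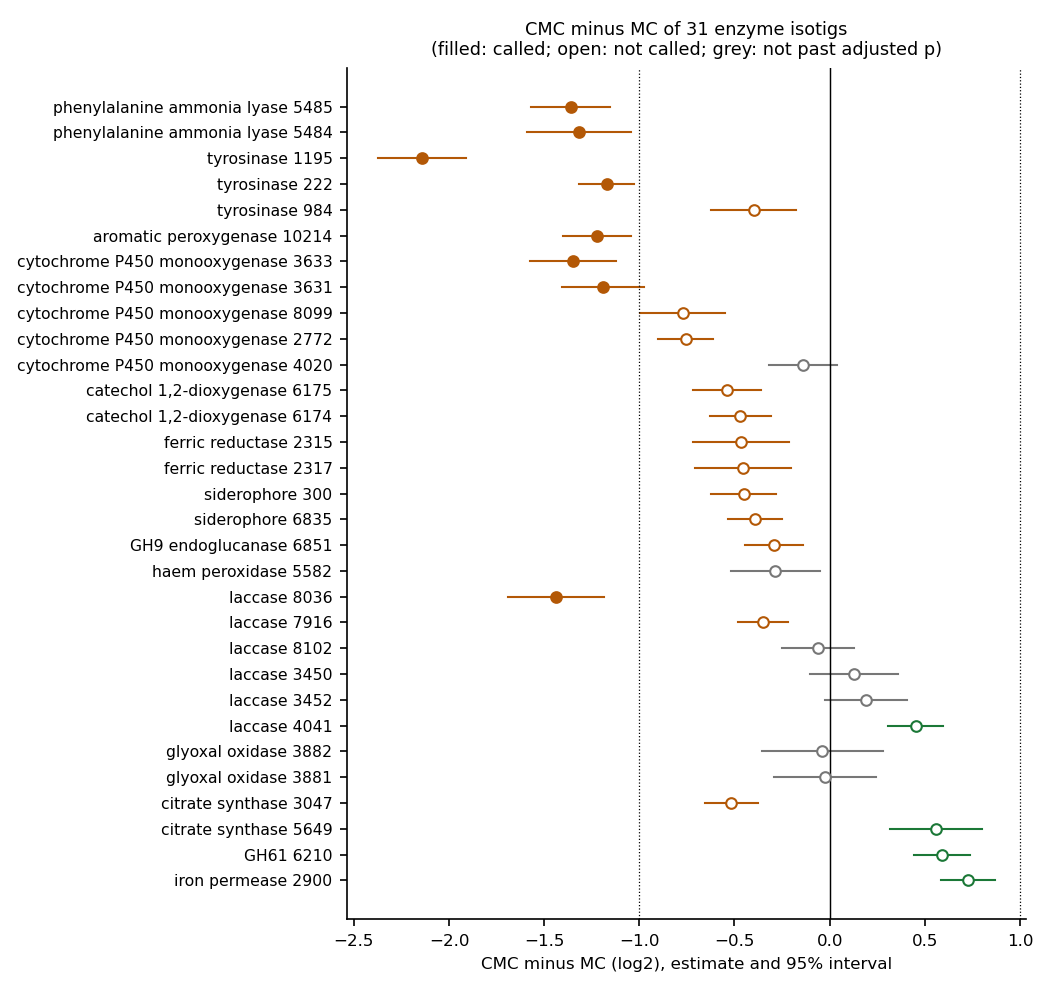
Difference of CMC minus MC (log2, horizontal axis) with its 95% interval from limma for 31 enzyme isotigs, sorted by family, with dotted lines at a 2-fold difference. The 8 filled points, all on the side of MC, are called, the 4 points in green on the side of CMC stay under 2-fold, and the 7 grey ones do not pass the adjusted p.

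The deposited tables give identifiers without names, and 0 of the 12214 were found in the gene table of the sequenced genome. All 38 isotigs called higher on CMC and 91 of the 100 called lower thus have no name here, and only the 2 with the largest difference in each direction are given by identifier. Isotig paxillus_6442 had 10.42, 10.40 and 10.20 on CMC and 13.28, 13.38 and 13.59 on MC, the largest difference of all 12214 isotigs. It was 8.43-fold higher on MC (95% interval 6.57 to 10.8, adjusted p = 2.8e-10), and CMC was at the level of MMN, with a mean of 10.46 ± 0.07 (SD, n = 3) on slide 2. On MH it had a middle level that varied widely, at 10.95, 11.63 and 12.01, and on FH a mean of 10.43 ± 0.15 (SD, n = 3). Isotig paxillus_6443, next to it in number, had nearly the same pattern and was 8.20-fold higher on MC (95% interval 6.35 to 10.6, adjusted p = 4.4e-10). The wide spread on MH enters the standard errors of both, 0.17 and 0.18, as the fit pools the spread of all media.

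On the side of CMC, paxillus_285 had 13.18, 13.26 and 12.98 on CMC and 11.01, 10.93 and 10.94 on MC. The level on CMC exceeded that on MC 4.53-fold (95% interval 4.03 to 5.09, adjusted p = 1.8e-12). All CMC arrays lay below the MMN and FH arrays too, but much closer to them than to MC, as the MMN arrays of slide 2 had 13.68, 13.51 and 13.55 and the FH arrays 13.95, 13.77 and 13.80. Isotig paxillus_8551 was 3.50-fold higher on CMC (95% interval 2.95 to 4.16, adjusted p = 2.2e-09), with 12.88, 12.99 and 12.77 on CMC and 11.28, 11.06 and 10.87 on MC. The MMN arrays lay between, at 11.87, 11.62 and 11.91. Its difference from MMN was 1.08 on CMC and -0.73 on MC, both measured against the same 3 MMN arrays. The 10 isotigs with the largest differences in favour of MC, one of them tyrosinase paxillus_1195, had sizes from 2.05 to 3.08 on the log2 scale and MC means from 12.86 to 13.98. In favour of CMC the sizes of the leading 10 were from 1.52 to 2.18, and the MC means from 10.34 to 12.08.

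**Figure D4:**
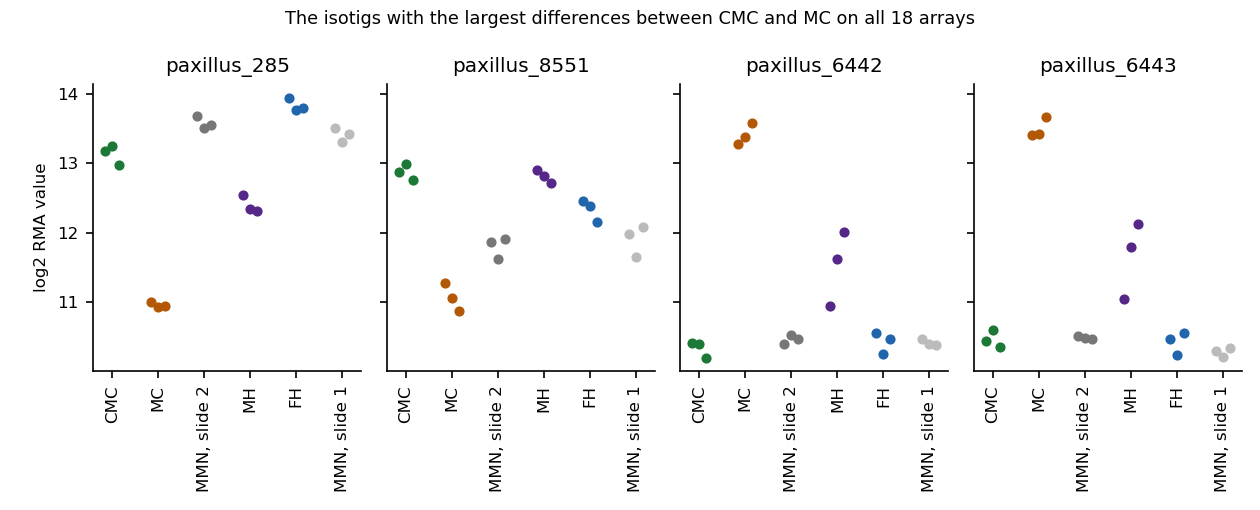
Level (log2 RMA value, vertical axis) on each of the 18 arrays, by medium and slide, of the 2 isotigs with the largest difference in each direction. MC has the lowest values for paxillus_285 and paxillus_8551 and the highest for paxillus_6442 and paxillus_6443, and the MH arrays lie between those of MC and CMC for paxillus_285, paxillus_6442 and paxillus_6443.

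For most of the called isotigs MC, not CMC, was the medium farther from the MMN mean of slide 2. This held for 94 of the 100 isotigs lower on CMC and for 30 of the 38 higher on CMC, beside 7195 of all 12214 isotigs. Among the 100 lower on CMC, the median level was 11.25 on CMC, 12.75 on MC and 11.14 on MMN of slide 2. Among the 38 higher on CMC, it was 12.69 on CMC, 11.37 on MC and 12.56 on MMN. In 30 of the 100 and 13 of the 38, all 3 MMN arrays lay between the CMC and the MC arrays. The same count was not made over all isotigs, so these shares have no background here. Only 6 of the 100 and 8 of the 38 had CMC farther from MMN than MC was. The largest differences among these were of a size of 1.40 for those lower on CMC and, with paxillus_8551, 1.81 for those higher on CMC. The called isotigs overlap in origin to an unknown degree. The isotigs of an isogroup named above have numbers that adjoin or nearly adjoin, and 22 of the 100 and 6 of the 38 called isotigs stood in runs of consecutive numbers, 10 and 3 runs, so the number of genes may be smaller than that of isotigs.

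The enzyme isotigs took up different positions relative to MMN, and the values below are each medium's difference from the same 3 MMN arrays of slide 2, which both share. For some of the called isotigs with an enzyme name, the difference of CMC from MMN missed an adjusted p of 0.01. The study chose its enzymes for a rise over MMN on organic matter, and a call lower on CMC selects further for CMC levels near MMN. They were therefore not counted against all isotigs, and paxillus_7541 was chosen with its values known. The difference from MMN on CMC and on MC was 0.03 and 1.22 for P450 paxillus_3631, 0.12 and 1.47 for P450 paxillus_3633, and 0.03 and 1.26 for the aromatic peroxygenase paxillus_10214, and limma gave adjusted p-values on CMC of 0.81, 0.35 and 0.76. It was 0.27 and 2.41 for tyrosinase paxillus_1195 and -0.29 and 1.30 for tyrosinase paxillus_7541, with adjusted p-values on CMC of 0.044 and 0.043. Phenylalanine ammonia lyase paxillus_5485 was above MMN on both, by 1.37 on CMC and 2.73 on MC, as was tyrosinase paxillus_222, by 1.48 and 2.65. Laccase paxillus_8102 and glyoxal oxidase paxillus_3881 had nearly equal differences from MMN on both media, 1.53 and 1.59 for the laccase and 1.27 and 1.30 for the oxidase. The isotigs higher on CMC were also above MMN there, with a difference on CMC and on MC of 0.72 and -0.01 for iron permease paxillus_2900, 0.80 and 0.21 for GH61 paxillus_6210 and 1.46 and 0.90 for citrate synthase paxillus_5649.

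The hot water extracts on slide 1 show the same isotigs on other arrays. These enter the comparison of CMC with MC through the pooled spread but not through the means, and a fit of the 6 CMC and MC arrays alone called the same 38 and 100 isotigs. MH came from compost, as did MC, and FH from spruce litter. Of the 100 isotigs lower on CMC than on MC, 31 were called higher on MH than on FH and 1 was called lower, beside 0.737% and 0.368% of all isotigs. At the adjusted p alone, 69 were higher on MH and 3 were lower, beside 22.0% and 26.9% of all isotigs. These 31 make up 34.4% of the 90 isotigs called higher on MH than on FH. The median difference of MH minus FH was 0.56 for the 100 isotigs and -0.02 for all. Of the 38 isotigs higher on CMC, 8 were called lower on MH than on FH and 0 higher. At the adjusted p alone, 30 were lower on MH and 3 higher, and the median difference was -0.62. These 8 make up 17.8% of the 45 isotigs called lower on MH than on FH.

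Among the enzymes, phenylalanine ammonia lyase paxillus_5485 was also higher on MH than on FH, with means of 13.71 ± 0.09 and 12.67 ± 0.13 (SD, n = 3) and a difference of 1.04 (adjusted p = 2.2e-07). Laccase paxillus_8036 had a difference of MH minus FH of 0.65 (adjusted p = 0.00017) and tyrosinase paxillus_1195 of 0.62 (adjusted p = 0.00011). Of the 20 enzyme isotigs lower on CMC at the adjusted p, 13 were higher on MH than on FH and 3 were lower. Over all isotigs the shares were 22.0% and 26.9%. The study had chosen its enzymes for a rise over MMN on organic media, MH and FH among them. The shares over all isotigs are thus no proper background for this list. The count is no independent evidence of a direction. The 13 count both isotigs of phenylalanine ammonia lyase, catechol dioxygenase and ferric reductase. The 3 lower ones were P450 paxillus_8099, with a difference of MH minus FH of -0.58 (adjusted p = 0.00016), citrate synthase paxillus_3047, with -0.23 (adjusted p = 0.0072), and tyrosinase paxillus_222, with -0.23 (adjusted p = 0.0082). P450 paxillus_3631 and peroxygenase paxillus_10214, both called lower on CMC, did not pass. Isotigs not past the adjusted p between CMC and MC also differed here. Laccase paxillus_8102 (0.79) and haem peroxidase paxillus_5582 (0.57) were higher on MH, and laccases paxillus_3450 (-0.37) and paxillus_3452 (-0.42) lower. Of the 4 higher on CMC, 1 passed the adjusted p between MH and FH, with MH higher. It was GH61 paxillus_6210, with a difference of 0.62 (adjusted p = 1.7e-06). For paxillus_285, which was higher on CMC than on MC, the difference of MH minus FH was -1.43 (adjusted p = 3.7e-10).

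**Figure D5:**
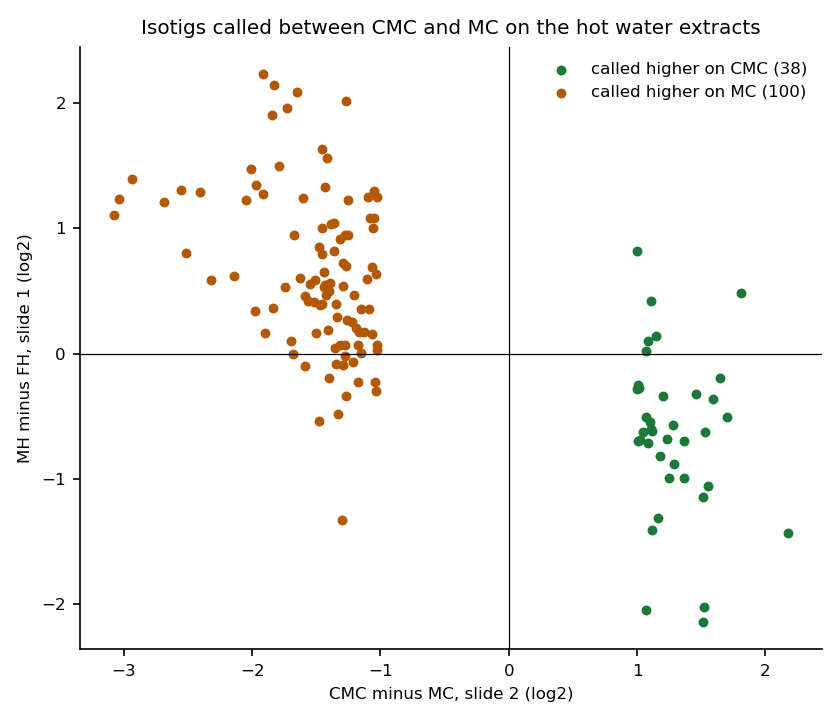
Difference of MH minus FH on slide 1 (log2, vertical axis) against that of CMC minus MC on slide 2 (log2, horizontal axis) for the isotigs called between CMC and MC, each point an isotig. Of the 100 isotigs higher on MC the median on the vertical axis is 0.56, and of the 38 higher on CMC it is -0.62.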

How the data were processed

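The deposited values, 1 per isotig and array, were made by the authors with RMA, which corrects the background, normalizes between arrays and summarises the probes of an isotig (10 for 12203 isotigs) on the log2 scale. The version is not given in the sources used here. A reading as natural logarithms would put at least 63.5% of the isotigs of every array above the range of a 16-bit scanner. Medians of the 6 CMC and MC arrays were 11.46 to 11.47. The number of arrays limits the precision. The deposited series table was checked and did not differ from the per-array values.

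A linear model with 6 group means (FH, MH, MC, CMC and MMN on each slide) was applied to the 18 arrays in limma 3.58.1 in R 4.3.3, using lmFit and eBayes, with 12 residual and 5.35 prior degrees of freedom. P-values were adjusted by the Benjamini-Hochberg method over the 12214 isotigs. The thresholds, an adjusted p under 0.01 and 2-fold, are those of the study. Isogroup pairs were compared with lmFit on the log2 ratio of their isotigs per array, without moderation, adjusted over 6 pairs. The fit was also run on simulated arrays with known changes. Their noise was independent, normal and of equal spread in all groups, so they cannot test shared cultures, slide position or unequal spread. Enzyme names are those of the study. The members and lists were chosen with earlier results of these data known. The text names the 31 isotigs with an enzyme name in an earlier account of these data and, as those without a name, the 2 with the largest difference in each direction among the called isotigs whose arrays did not overlap. Further isotigs of the rule (10 per direction, 5 per direction with MMN between the media and 5 with CMC farther from MMN) are given by their ranges. Alternatives are given in the closing section.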

Additional observations from a re-analysis of the deposited data

How the results depend on the processing

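The numbers of isotigs called higher (38) and lower (100) on CMC were recomputed under 18 alternatives. A 1.5-fold threshold gave 191 higher and 264 lower. Under the other 17 both numbers stayed within 1.5 times the reported ones. Leaving out each CMC and MC array in turn gave 36 to 41 higher and 93 to 108 lower, and without MC replicate 3, whose note names MH, 36 of 41 and 93 of 93 were among those reported. Without the 25% dimmest isotigs the numbers were 36 and 79, and the called isotigs paxillus_3633 and paxillus_7541, as well as paxillus_6851, were not tested. An adjusted p under 0.05, only the 6 CMC and MC arrays, only slide 2, a repeated quantile normalization, an intensity trend with robust variances, the MMN culture as a random block and arithmetic means each gave 38 and 100 again. In the random block fit the consensus correlation between same-numbered MMN arrays of both slides was 0.53, while the main fit treats these arrays as separate. Arrays centred on their medians gave 39 and 100. The number past the adjusted p alone, 2068, ranged from 1501 to 1844 without 1 array. The deviations of same-numbered CMC and MC arrays from their medium means had correlations of 0.08, 0.08 and -0.13. So few values cannot tell whether same-numbered cultures were handled together. Fits with the replicate number as a block called 38 and 100, on 18 and on 6 arrays, with 2053 past the adjusted p alone on 18.

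Of 36 isotigs with printed values, none lost its call under an alternative that tested it, and only paxillus_3881, which was not called, changed sign, under 2 of them. At 1.5-fold, paxillus_2772, paxillus_8099, paxillus_6210 and paxillus_2900 were also called. Under alternatives other than leaving out an array, the adjusted p exceeded 0.01 for paxillus_984 (up to 0.013), paxillus_6851 (up to 0.021) and paxillus_2317 (0.014). Under the 3 alternatives run for them, the number of isotigs lower on CMC called higher on MH than on FH was 30 or 31, and that of isotigs higher on CMC called lower on MH was 8 or 10. With 3 arrays a medium, values near the random probes and differences within their intervals cannot be resolved.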
